A study of Rattus norvegicus with 176 samples.

Results

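The data describe 4 genes whose proteins bring fatty acids into the cell or bind them inside it, Cd36, Fabp1, Fabp3 and Fabp4, in the liver of F344 rats given clofibric acid (CA). The 4 were found by the array's annotation among 10411 genes with a probe set, and the probe set with the highest mean log2 signal over all arrays stood for each gene. They were followed over treatment arm, over time, over groups tagged rev and over sections tagged TU. CA is a fibrate, a lipid-lowering drug that activates the nuclear receptor PPARalpha. DEN is the field's abbreviation for diethylnitrosamine, a carcinogen that is used to start liver tumours.

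Every rat gave 1 section without a tag, and these untagged sections made 30 groups of 3 to 6 rats each. The 4 arms were DEN-CA, CA, DEN and control, each with 5 rats at 5j, 1m, 3m, 9m and 12m, and CA and control also had 5 rats each at 18m. DEN and control had 5 more rats each at a time written as -8. Groups tagged rev held 5 DEN-CA, 6 DEN and 4 control rats at 12m, and 4 CA and 3 control rats at 18m. Another 6 CA rats carry the time 18 without a unit. The CA rats had, besides, 15 sections tagged TU from 9 rats, and the DEN-CA rats had 8 from 7 rats, while 5 of these 16 rats also had a section tagged PERI. What j, rev, TU and PERI stand for is not explained in the labels, which give no sex, age or route either. The titles name 5000 ppm CA for every rat, controls included, so the arms follow the group names.

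Cd36 is a scavenger receptor of the plasma membrane that takes up long-chain fatty acids. Fatty acid binding proteins carry fatty acids within the cytosol, and each is named for the tissue it was first known from: Fabp1 is the liver form, Fabp3 the heart and muscle form, and Fabp4 the form of adipocytes and macrophages. PPARalpha pairs with the retinoid X receptor and binds repeats of the half-site AGGTCA with 1 base between the copies. In rat liver it is known for switching on genes of fatty acid oxidation, and Fabp1 is among its textbook targets.

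The promoter windows of the members in RefSeq (assembly GRCr8) run from 250 bases before to 50 bases after the annotated start, and they are shown because the drug activates PPARalpha. A table entry was there for 3 of the 4 members; Fabp4 is named only. Both strands were searched for 2 copies of AGGTCA in the same direction with any 1 base between them, with at most 2 mismatches in the 12 fixed bases, and matches are in capitals.
Fabp1, chr4:104749090-104749389, plus strand: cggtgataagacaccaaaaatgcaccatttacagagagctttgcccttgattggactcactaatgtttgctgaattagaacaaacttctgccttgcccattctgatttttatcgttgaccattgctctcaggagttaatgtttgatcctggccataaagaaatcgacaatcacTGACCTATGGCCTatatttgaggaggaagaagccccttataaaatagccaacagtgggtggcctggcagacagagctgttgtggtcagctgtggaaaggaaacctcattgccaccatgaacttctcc
Cd36, chr4:18246332-18246631, plus strand: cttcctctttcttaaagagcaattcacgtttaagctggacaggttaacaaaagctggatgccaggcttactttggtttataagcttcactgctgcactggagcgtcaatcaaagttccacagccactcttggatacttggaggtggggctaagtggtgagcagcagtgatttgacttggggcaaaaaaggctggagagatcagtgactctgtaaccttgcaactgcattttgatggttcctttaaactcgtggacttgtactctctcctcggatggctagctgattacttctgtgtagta
Fabp3, chr5:147935875-147936174, plus strand: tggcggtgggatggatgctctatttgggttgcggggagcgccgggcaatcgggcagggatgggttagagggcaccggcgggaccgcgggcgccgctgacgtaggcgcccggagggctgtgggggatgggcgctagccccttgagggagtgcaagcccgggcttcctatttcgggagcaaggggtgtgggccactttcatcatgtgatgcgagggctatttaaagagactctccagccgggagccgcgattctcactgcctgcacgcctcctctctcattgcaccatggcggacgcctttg
The Fabp1 window held 1 match, on the minus strand at chr4:104749263-104749275, that is from base -77 to base -65 before the start, with 1 mismatch. Of 33469 rat promoter windows of this length, 0.439% held such a repeat with at most 1 mismatch and 3.77% with at most 2. The windows of Cd36 and Fabp3 held none, which says only that these letters are not in these windows. Each of the 3 starts lies inside its gene's span, so a window covers 1 annotated start of its gene.
The genes themselves lie at chr4:18209088-18302142 (Cd36), chr4:104744302-104753119 (Fabp1), chr5:147936027-147942870 (Fabp3) and chr2:93488251-93492961 (Fabp4) on the same assembly.

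Signals are the deposited intensities after each array was scaled to a common median of 99.35, and the array medians before scaling ran from 25.35 to 187.2. Changes are differences of log2(signal + 25) with their standard errors from limma, and folds on this scale understate changes of dim probe sets. Adjusted p-values are Benjamini-Hochberg values over all 12368 probe sets tested in untagged sections, with 0.05 as the threshold. The p-values rest on the spread between rats within a group, pooled over all 30 groups for each probe set. The standard error of a change thus does not follow the spread of its own groups alone. For TU and PERI sections the p-values rest on the spread of the per-rat differences. In whole sections, fewer cells of a type and less RNA per cell cannot be told apart. Albumin (Alb) and transthyretin (Ttr), which define hepatocytes, were above the 40th percentile of the array in all untagged sections. Plin1, which coats the lipid droplets of adipocytes, was above it in 3 untagged sections, and the muscle genes Mb and Myh7 in 0, although the muscle creatine kinase Ckm was above it in 121. Cd68 and Clec4f, which define macrophages and Kupffer cells, were above it in all of them.

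The untagged sections of 4 rats stood apart from all others in A1bg and Prlr: rat 4040 of control 18m, rat 4046 of control rev 18m, and rats 4081 and 4084 of DEN rev 12m. A1bg, a secreted protein made by female rat liver, had signals of 6393, 5516, 5693 and 4580 in them, while the highest of the other 144 sections had 812. Cyp2c11, a cytochrome P450 of male rat liver, ran from 72.28 to 210.7 in these 4 rats, against 105.1 to 13200 with a median of 6658 in the other 144 sections, so this gene overlapped. The prolactin receptor gene Prlr ran from 3462 to 6186 in the 4 rats and reached 2009 at most elsewhere. The labels give no reason. Changes of the members and counts of listed genes that rest on these groups are given with and without the 4 rats, while the orders of group levels, the most similar genes and the check of the suffix B include them. Where a value is given without single rats of these 4, all 4 were left out of the fit together.

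Cd36 rose in CA livers at the early times and not at the late ones. At 5j its signals were 1254, 1496, 965.9, 1195 and 1908 in CA rats, against 47.18, 172.2, 75.05, 79.13 and 124.9 in control rats. Every CA rat lay far above every control rat. The log2 change was 3.53 ± 0.31 (SE), an 11.5-fold rise (limma, adjusted p = 4.08e-18). It was 2.53 ± 0.31 at 1m (adjusted p = 7.39e-11) and 2.12 ± 0.31 at 3m (adjusted p = 4.52e-08), and the 2 arms did not overlap at either time. At 5j, 3 of the 4 members were called, and 11.2% of all probe sets tested were called. At 1m and 3m the same 3 members were called, with 14.4% and 14% of all probe sets.

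From 9m on, Cd36 did not differ detectably between CA and control rats. At 9m CA rats had signals of 609.1 to 856.2 and control rats 303.3 to 1076, with a change of 0.57 and a 95% interval of -0.04 to 1.18. At 12m the change was 0.31 (95% interval -0.30 to 0.92). At 18m it was 0.00 (95% interval -0.61 to 0.61, adjusted p = 0.997), and without control rat 4040 it was 0.34 ± 0.27 (adjusted p = 0.582). The 6 CA rats labelled 18 had signals from 816.6 to 1560, with a median of 932.8, which gave a change of -0.01 ± 0.30 against control 18m, and of 0.32 ± 0.26 without rat 4040 (adjusted p = 0.408). These times overlapped between the arms, and 6.83%, 11.7% and 6.8% of all probe sets were called at 9m, 12m and 18m.

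**Figure D1:**
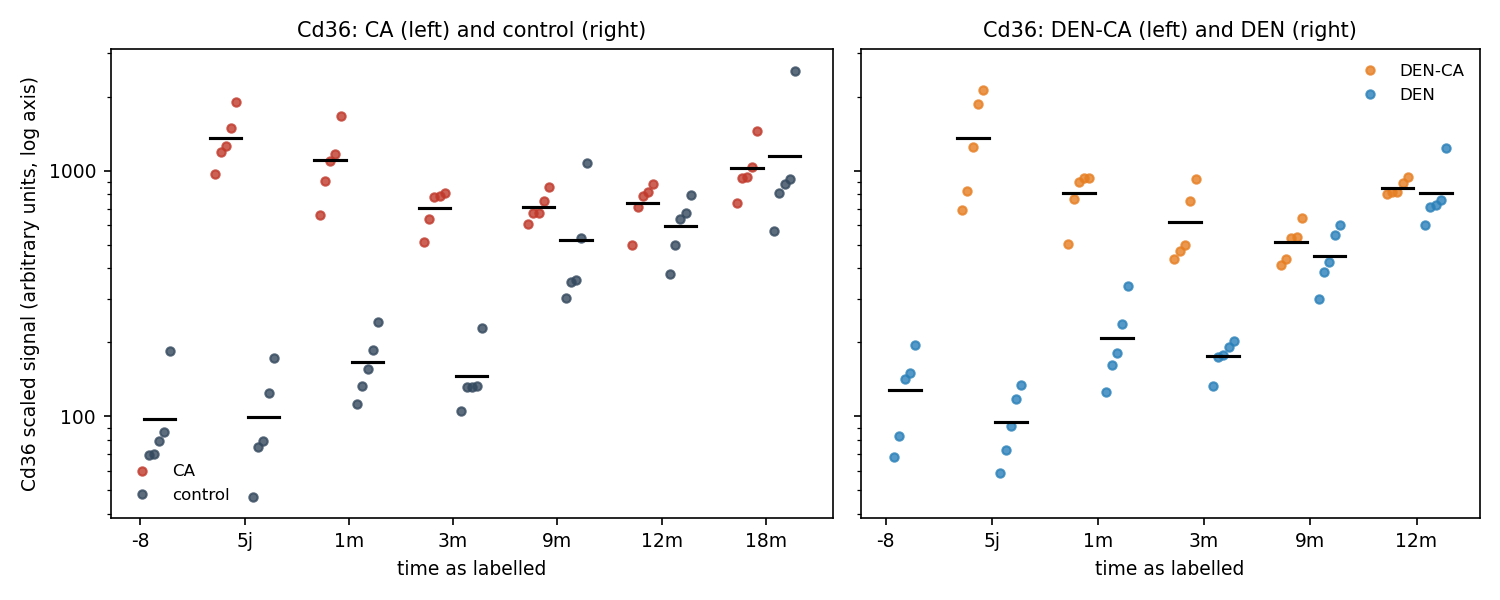
Cd36 signal in untagged sections over time, without the rev groups and the CA rats labelled 18, on a log axis, with CA left of control in one panel and DEN-CA left of DEN in the other; dots are rats and black lines are group means. CA rats at 5j lie between 965.9 and 1908 and control rats at 5j between 47.18 and 172.2, while at 12m the ranges of 496.9 to 886.5 and 381.1 to 792.6 overlap.

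In rats without CA, Cd36 rose with time. In control rats it had signals of 566.7, 882.6, 809.9, 2555 and 926.6 at 18m, against 47.18 to 172.2 at 5j. The old and the young controls did not overlap. The change at 18m against 5j was 3.12 ± 0.31, an 8.69-fold rise (adjusted p = 6.72e-14). It was 2.78 ± 0.27 with rat 4040 and the other rats of high A1bg left out (adjusted p = 1.31e-14). It was 2.07 ± 0.31 at 9m (adjusted p = 2.64e-06) and 2.36 ± 0.31 at 12m (adjusted p = 1.23e-08), while 1m (0.66) and 3m (0.50) did not pass. In DEN rats the changes were 1.99 ± 0.31 at 9m (adjusted p = 4.23e-06) and 2.79 ± 0.31 at 12m (adjusted p = 8.66e-12). In controls, Cd36 was the only member of the 4 called at 9m, 12m and 18m, where 1.2%, 6% and 7.02% of all probe sets were called. None of the 4 was called at 1m or 3m, with 0% of all probe sets, and 799 and 1298 probe sets had an unadjusted limma p under 0.05 there. In DEN rats it was likewise the only one of the 4, with 0.542% and 1.2% of all probe sets called at 9m and 12m, and none was called at 1m (0.0404%) or 3m (0.0485%).

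In CA rats no such rise passed the test. Their Cd36 signals were 736.3, 1039, 940.4, 937.5 and 1455 at 18m, and no later time differed from 5j past the threshold in CA rats. In DEN-CA rats the signal ran from 412.3 to 642.3 at 9m and from 691.6 to 2126 at 5j, a change of -1.24 ± 0.31 (adjusted p = 0.00558). The change of the CA effect itself between 5j and a later time passed at 9m (-2.96 ± 0.44), 12m (-3.21 ± 0.44) and 18m (-3.52 ± 0.44, adjusted p = 1.77e-09). The last was -3.19 ± 0.37 without rat 4040 (adjusted p = 1.16e-10). Over all probe sets 0.736%, 2.07% and 0.728% were called in these 3 tests. At 1m (0.0647% of all probe sets) and 3m (0.21%) the change of the effect passed for none of the 4 members. The later times of 1 arm share their 5j rats.

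A suffix B, which 46 untagged arrays carry in their titles without an explanation, was uneven over time: 4 of 5 control arrays had it at 5j and 0 of 5 at 18m. With the suffix as a covariate, the change of Cd36 in controls at 18m against 5j was 3.17 (adjusted p = 4.85e-13). Within arrays with no suffix the change at 9m against 5j was 2.39, over 4 rats at 9m and 1 at 5j, and within arrays with the suffix it was 1.65, over 1 rat at 9m and 4 at 5j. As each rests on 1 rat in 1 group, they are given as values without a test. The CA change at 5j was 3.65 ± 0.40 within arrays with the suffix, over 2 CA and 4 control rats (adjusted p = 5.52e-08). Within arrays without it the value was 3.64, over 3 CA rats and 1 control rat.

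A second probe set matches both Cd36 and its neighbour in name, Cd36l1, so it could not stand for Cd36 alone. It moved in the same direction at 5j, with a CA change of 2.51 ± 0.24 (adjusted p = 6.35e-16). In controls at 18m against 5j it also rose, by 1.92 ± 0.24, or 1.66 ± 0.21 without rat 4040 (adjusted p = 1.15e-09). Of 64 contrasts, 12 had the opposite sign to the Cd36 probe set, with no call in either. Another 5 had a call that the Cd36 probe set lacked.

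With DEN, Cd36 also rose at the early times. At 5j the signals were 1251, 822.8, 2126, 691.6 and 1870 in DEN-CA rats, against 117.3, 91.53, 72.64, 59.04 and 134 in DEN rats. The lowest DEN-CA rat lay above the highest DEN rat at 5j, 1m and 3m, and the ranges overlapped at 9m and 12m. The changes were 3.43 ± 0.31 at 5j (10.8-fold, adjusted p = 1.56e-17), 1.87 ± 0.31 at 1m (adjusted p = 1.15e-06) and 1.63 ± 0.31 at 3m (adjusted p = 3.31e-05). At 9m and 12m 7.01% and 7.06% of all probe sets were called. The changes of Cd36 were 0.20 at 9m (95% interval -0.41 to 0.81) and 0.12 at 12m (95% interval -0.49 to 0.73), neither past the threshold. The fall of the DEN-CA effect from 5j passed at 3m (-1.80 ± 0.44), 9m (-3.24 ± 0.44) and 12m (-3.31 ± 0.44, adjusted p = 1.2e-08). The call at 3m ended without DEN-CA rat 4087 or 4089, with -2.01 to -1.61 over the rats left out. At 1m such a change passed for none of the 4 members and 0.267% of all probe sets. At 5j, 1m and 3m 2 of the 4 members were called, Cd36 and Fabp3, with 10.5%, 16.2% and 14.3% of all probe sets. None of the 4 differed in its CA effect between the arms with and without DEN at any of 5 times, in 20 limma tests. At an unadjusted p under 0.05, such a difference was found for 1137 of 12368 probe sets at 5j, and the adjusted test called 5. It called 0% of all probe sets at 1m and 12m, 0.218% at 3m and 0.00809% at 9m. At 1m and 12m 1131 and 454 probe sets had an unadjusted limma p under 0.05 for this difference. DEN alone moved none of the 4 against controls in 24 tests. Of all probe sets 0.307% were called at -8, 0.0404% at 5j, 0.00809% at 3m and 0% at 1m, 9m and 12m, where 548, 458 and 331 had an unadjusted limma p under 0.05.

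Over the 30 groups of untagged sections, the highest mean log2 level of Cd36 was in CA 5j and the lowest in DEN 5j. Neighbours in this order overlapped in every case, and 1 gap between neighbours was larger than the larger of the 2 groups' SD. This gap of 1.06 log2 lay between DEN 9m (mean signal 451.4 ± 120.9, SD) and DEN 1m (208.9 ± 82.74). Below it stood the 8 groups of DEN and control rats at -8, 5j, 1m and 3m, and above it all CA and DEN-CA groups and all DEN and control groups from 9m on. The genes whose group means followed Cd36 most closely over the 30 groups were Bmp7 (Pearson r = 0.872), Rgs16 (0.859), Adh4 (0.843), Aldh1a1 (0.823) and Resp18 (0.817), of 8732 genes compared. The points share their arrays and their scaling, and these values are a description.

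Fabp1, the major fatty acid carrier of the hepatocyte cytosol, rose by less than 2-fold with CA. At 3m its signals were 20190, 17070, 24210, 33810 and 20370 in CA rats, against 12850, 11990, 11150, 19150 and 13230 in control rats. The highest control lay above the lowest CA rat, and the other 4 controls lay below every CA rat. The change was 0.74 ± 0.17 (1.67-fold, adjusted p = 0.000737). It was 0.63 ± 0.17 at 5j (adjusted p = 0.0066) and 0.47 ± 0.17 at 1m (adjusted p = 0.0464). At 9m it was -0.08 ± 0.17, at 12m 0.40 ± 0.17 (adjusted p = 0.12) and at 18m 0.29 ± 0.17 (adjusted p = 0.367), or 0.22 ± 0.18 without rat 4040 (adjusted p = 0.587). The 6 CA rats labelled 18 had signals from 14940 to 17550, with a median of 15340, and the 5 controls of 18m 7979 to 11600. These groups did not overlap, with a change of 0.68 ± 0.16 (adjusted p = 0.000781), and it was 0.61 ± 0.17 without rat 4040 (adjusted p = 0.00506). In that comparison 2 of the 4 members and 23.3% of all probe sets were called, and without rat 4040 3 of 4 and 21.5%.

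Fabp1 is bright on these arrays: its signal reached 0.926 of the highest signal of its array. For Cd36 the CA change at 5j was 3.08 without scaling and 3.52 after quantile normalization, but the calls of Fabp1 depended on the scaling. Without scaling the change of Fabp1 at 3m was -0.22 (adjusted p = 0.241) and at 5j 0.23 (adjusted p = 0.398), and the direction at 3m was thus the opposite. After quantile normalization the change of Fabp1 at 5j was 0.42 (adjusted p = 6.48e-07). At 5j the call also ended without CA rat 4117 (0.48, adjusted p = 0.06), and at 1m it ended without any 1 of 6 rats.

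With DEN, no change of Fabp1 passed. At 5j DEN-CA rats had 12460, 20790, 18280, 11650 and 16310, against 11520, 12740, 9662, 10410 and 16720 in DEN rats, and the ranges overlapped. The changes ran from -0.22 ± 0.17 at 9m to 0.37 ± 0.17 at 5j. Whether CA moved Fabp1 less with DEN was tested at 5 times, and none of these tests passed.

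Within CA rats, Fabp1 was lower at 9m and 18m than at 5j. Its signals were 13480, 10630, 11380, 11270 and 11610 at 9m, against 30600, 24170, 17140, 18380 and 15370 at 5j. The groups did not overlap. The change was -0.81 ± 0.17 at 9m (adjusted p = 0.000841) and -0.78 ± 0.17 at 18m (adjusted p = 0.000877), and 4.7% and 8.12% of all probe sets were called. At 1m (-0.21), 3m (0.14) and 12m (-0.42) the change of Fabp1 did not pass, and at 1m none of the 4 members was called (0.55% of all probe sets). Without scaling the values at 9m and 18m were 0.13 and 0.03, so the direction flipped, and after quantile normalization the second was 0.0017. In control, DEN and DEN-CA rats no later time differed from 5j.

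**Figure D2:**
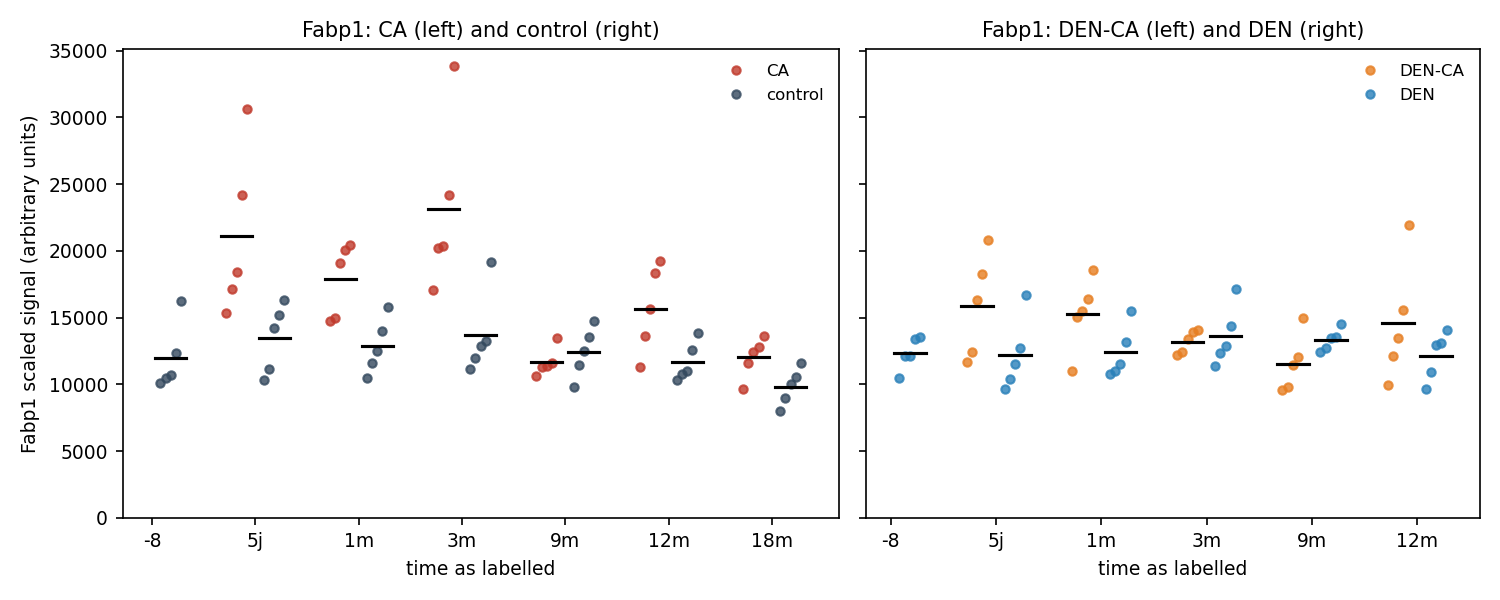
Fabp1 signal in untagged sections over time, without the rev groups and the CA rats labelled 18, on a linear axis from 0, with CA left of control and DEN-CA left of DEN; dots are rats and black lines are group means. CA rats at 3m run from 17070 to 33810 and control rats at 3m from 11150 to 19150, and these arms overlap at every time.

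The genes with group means most like those of Fabp1 were Chchd10 (r = 0.957), Atp5f1b (0.918), Sod1 (0.909), Slc27a2 (0.905) and Tmem205 (0.874). Slc27a2 belongs to the other uptake genes described further on.

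Fabp3, the form known from heart and skeletal muscle, had low signals in livers without CA and rose with CA at most times. At 1m its signals were 545.2, 1230, 764.5, 363.7 and 759.5 in CA rats, against 17.73, 92.42, 78.38, 44.99 and 26.75 in control rats. No CA rat overlapped a control rat. The change was 3.30 ± 0.41, or 9.83-fold (adjusted p = 1.48e-10). At 5j the CA rats had 259.1, 1217, 110.8, 174.2 and 1094, against 15.17 to 84.03 in control rats. Every CA rat was above every control rat, with rats 4118 and 4121 far above the other 3 CA rats, and the change was 2.47 ± 0.41 (adjusted p = 1.66e-06). The probe set was above the 40th percentile of the array in 5 of 5 CA rats and 1 of 5 control rats at 5j.

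Fabp3 was higher in CA rats at 18m too. Its signals were 135.5, 159.8, 167.1, 165.9 and 339.2 in CA rats, against 45.43, 68.2, 86.48, 22.1 and 80.28 in control rats. The groups did not overlap, with a change of 1.35 ± 0.41 (adjusted p = 0.0232). This call ended without CA rat 4150 (1.15, adjusted p = 0.0938). It also ended in the fit without the 4 rats of high A1bg, among them control rat 4040 (1.16 ± 0.43, adjusted p = 0.102). Changes were 1.39 ± 0.41 at 3m (adjusted p = 0.0111) and 1.55 ± 0.41 at 9m (adjusted p = 0.00706). At 12m the change was 0.32 ± 0.41 (adjusted p = 0.707), with signals of 98.32, 119.6, 166.9, 103.6 and 17.98 in CA rats, against 47.93 to 92.74 in control rats. The 6 CA rats labelled 18 had 122 to 403.7, with a median of 222.5 and a change of 1.59 ± 0.39 against control 18m (adjusted p = 0.00101), which was 1.39 ± 0.42 without rat 4040 (adjusted p = 0.00863). Fabp3 was the only member of the 4 called at 9m and 18m.

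**Figure D3:**
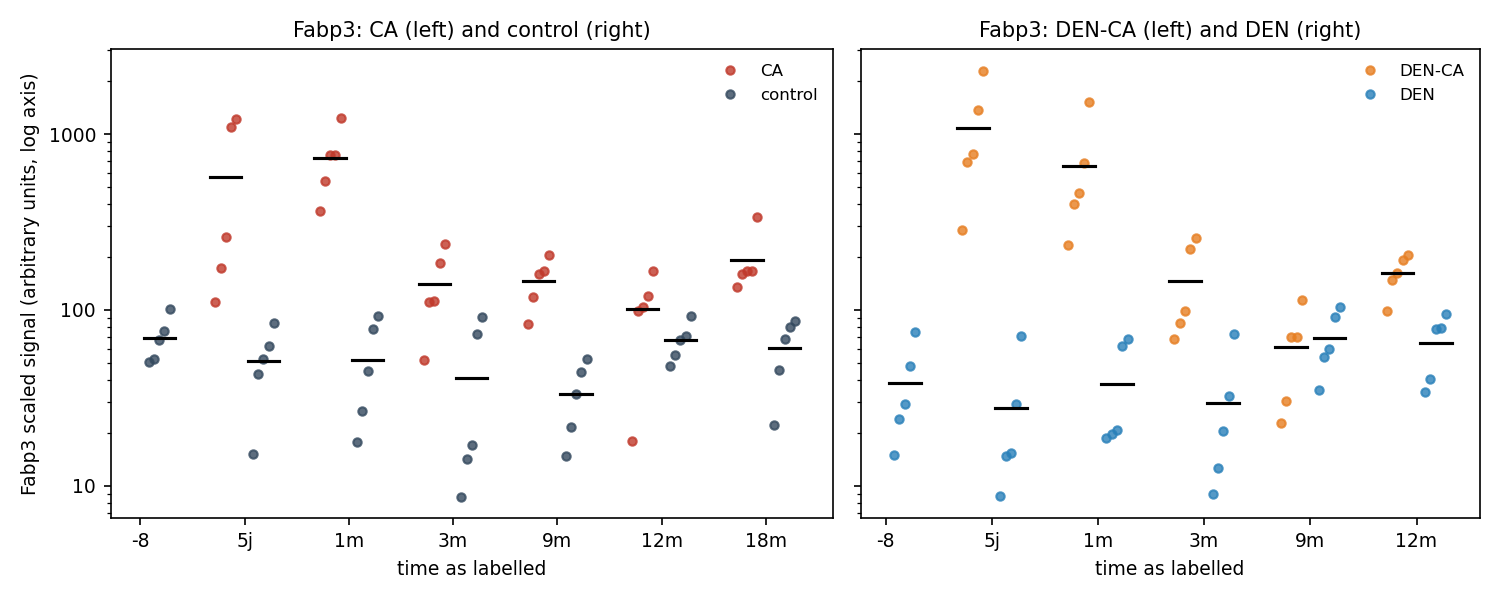
Fabp3 signal in untagged sections over time, without the rev groups and the CA rats labelled 18, on a log axis, with CA left of control and DEN-CA left of DEN; dots are rats and black lines are group means. At 1m CA rats run from 363.7 to 1230 and control rats from 17.73 to 92.42, and at 18m CA rats run from 135.5 to 339.2 and control rats from 22.1 to 86.48.

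With DEN, the early rise of Fabp3 was 4.20 ± 0.41, or 18.3-fold, at 5j (adjusted p = 1.38e-15). The signals were 772.3, 692.5, 2302, 286.4 and 1379 in DEN-CA rats, against 15.3, 8.795, 70.95, 29.1 and 14.83 in DEN rats. All 5 DEN-CA rats were above all 5 DEN rats. The change was 3.26 ± 0.41 at 1m (adjusted p = 2.05e-10) and 1.61 ± 0.41 at 3m (adjusted p = 0.00266). At 9m it was -0.17 ± 0.41 and at 12m 1.07 ± 0.41 (adjusted p = 0.0971). The change at 5j was larger with DEN than without it by 1.72 log2, a difference that did not pass (adjusted p = 0.272).

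In both CA arms Fabp3 was highest at the first 2 times. DEN-CA rats had 22.71 to 114.6 at 9m, against 286.4 to 2302 at 5j, a change of -3.48 ± 0.41 (adjusted p = 4.61e-11). The falls in DEN-CA rats were -2.54 ± 0.41 at 3m and -2.30 ± 0.41 at 12m. In CA rats they were -1.41 ± 0.41 at 3m (adjusted p = 0.0435), -1.28 ± 0.41 at 9m (adjusted p = 0.0483) and -1.83 ± 0.41 at 12m (adjusted p = 0.00231). The shares of all probe sets called in CA rats were 1.91% at 3m and 3.23% at 12m, and in DEN-CA rats 1.98% at 3m, 4.18% at 9m and 4.69% at 12m, with no member called at 1m (1.21%). The 3m and 9m calls in CA rats each ended when CA 5j rat 4118 or 4121 was left out, and also without others. The CA effect on Fabp3 itself was smaller at 12m than at 5j, with a change of -2.15 ± 0.58 (adjusted p = 0.0229), and this call ended without rat 4141, 4008, 4121 or 4118. The DEN-CA effect was smaller than at 5j at 3m (-2.58 ± 0.58), 9m (-4.37 ± 0.58) and 12m (-3.12 ± 0.58, adjusted p = 0.000169). Over all probe sets such a change was called for 0.59%, 2.13% and 0.889% at these 3 times.

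None of the 5 striated muscle genes that could be tested passed at 5j in either arm. The summed signal of all 15 on the array ran from 358.6 to 570.2 in CA rats and from 321.4 to 589.1 in control rats at 5j. At the same time it ran from 365.1 to 531.2 in DEN-CA rats and from 443.2 to 612.7 in DEN rats, and Mb and Myh7 were above the 40th percentile of the array in no section. The genes with group means most like Fabp3 were Acot1 (r = 0.946), an acyl-CoA thioesterase, Aig1 (0.941), Hadhb (0.930), Ech1 (0.927) and Ergic2 (0.925). Hadhb and Ech1 are enzymes of mitochondrial fatty acid oxidation.

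**Figure D4:**
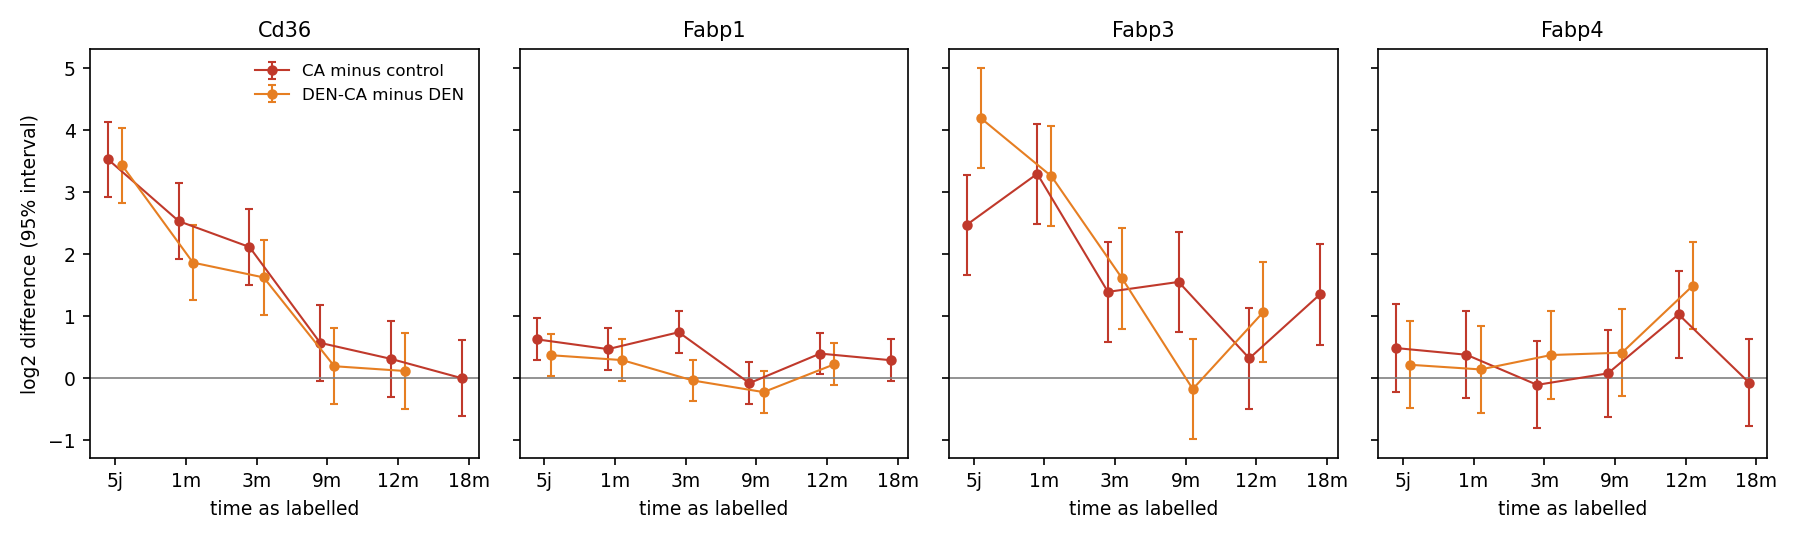
Log2 change of the 4 members with 95% intervals by time, CA minus control and DEN-CA minus DEN, each gene in a panel of its own. In CA rats Cd36 stands at 3.53 at 5j and at 0.00 at 18m, Fabp3 at 2.47 at 5j, 3.30 at 1m, 0.32 at 12m and 1.35 at 18m, and Fabp4 reaches 1.03 in CA and 1.49 in DEN-CA rats at 12m.

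Fabp4, the form of adipocytes, macrophages and some endothelium, was dim in untagged sections. It was above the 40th percentile of the array in 10 of them, and 23 of the 30 groups had no such section. DEN-CA 12m was the only group with at least 3. There the signals were 72.94, 68.22, 164.8, 38.42 and 77.13 in DEN-CA rats, against 39.68, 5.269, 2.114, 20.42 and 1.464 in DEN rats. The change was 1.49 ± 0.36 (adjusted p = 0.00207), and the lowest DEN-CA rat lay just below the highest DEN rat. Fabp4 was the only member of the 4 called at 12m in this arm, where 7.06% of all probe sets were called. Against DEN-CA 5j, with 4.916 to 33.65, the change was 1.18 ± 0.36 (adjusted p = 0.0323), a call that ended without rat 4108, 4085 or 4087 (0.96 to 1.35 over the rats left out). None of 10 macrophage and Kupffer cell genes and none of 10 endothelial genes passed in DEN-CA against DEN at 12m, and 2 of 10 adipocyte genes were higher.

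In CA rats at 12m the Fabp4 signals were 376.4, 20.53, 33.69, 22.96 and 2.602, against 2.373 to 17.64 in control rats. Rat 4137 stood far above the other 4. The change of 1.03 ± 0.36 (adjusted p = 0.0405) was 0.39 without that rat (adjusted p = 0.538). At the remaining times no change of Fabp4 with CA passed in either arm. In the 6 CA rats of time 18 it was 0.43 ± 0.34 against control 18m, and 0.96 ± 0.33 without rat 4040 (adjusted p = 0.0256). The genes with group means most like Fabp4 were Serpinb9 (r = 0.771), Wdr1 (0.768), Dbnl (0.764), Grn (0.744) and Lgals3 (0.740).

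In sections tagged TU, Fabp4 was higher than in the untagged section of the same rat. In the 7 DEN-CA rats the TU signals were 220.9, 192.1, 221.3, 140.4, 127.2, 67.01 and, in the 2 TU sections of rat 4111, 379.8 and 546, against 35.71, 22.65, 21.5, 72.94, 68.22, 38.42 and 126.6 in the untagged sections of the same rats. All 7 rats were higher in TU. The mean difference within rats was 1.47 ± 0.51 (adjusted p = 0.0332), and it ran from 0.54 in rat 4109 to 2.40 in rat 4105. Leaving out rat 4103, 4104, 4105 or 4111 ended the call, with differences from 1.31 to 1.62 over the rats left out. In the 9 CA rats TU signals ran from 18.6 to 338.3, with a median of 135.5, against 2.602 to 376.4, with a median of 16.27, in untagged sections. The TU section was higher in 8 of 9 rats, with a mean difference of 1.54 ± 0.45 (adjusted p = 0.0764). The exception was rat 4137, with 74.93 in its TU section, 15.52 in its PERI section and 376.4 in its untagged section. In the same rat Cd36 (722.3 in TU and 496.9 untagged) and Fabp1 (12570 and 11270) were also against the direction of most CA rats, and whether its sections carry the right tags was not tested.

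Rat 4137 weighed on the whole CA comparison of TU sections. With it, 0 of 11542 probe sets were called in CA rats (0%) although 2516 had an unadjusted limma p under 0.05, and 29.8% were called in DEN-CA rats. With the fit repeated without it, an alternative chosen after the data were seen, 2437 were called in CA rats. Fabp4 then differed by 1.99 ± 0.25 in CA rats (adjusted p = 6.92e-05). Over all 23 TU sections, Fabp4 was above the 40th percentile of the array in 20. The difference between the 2 arms in this contrast was -0.08 ± 0.68 and did not pass.

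Most markers of the cells known for Fabp4 were not higher in the TU sections of DEN-CA rats. Of 10 macrophage and Kupffer cell genes, 7 were lower and 0 higher. Clec4f had a median of 158.7 in TU sections and 739.6 in untagged sections of DEN-CA 9m. These medians were 203.1 and 744.8 in DEN-CA 12m, and 255.2 and 1190 in DEN-CA rev 12m. For Cd68 the TU and untagged medians lay closer together, with 464.4 and 501.1 in DEN-CA 9m and 359.8 and 452.6 in DEN-CA 12m. In DEN-CA rev 12m Cd68 was higher in TU, with medians of 689.3 and 653.7, and its 2 TU sections came from 1 rat. Of 10 endothelial genes, 4 were lower and 0 higher, among them Lyve1 (-1.41 ± 0.20) and Kdr (-1.64 ± 0.30). Of 9 adipocyte genes, 2 were higher and 5 lower, and Plin1 was above the 40th percentile of the array in 0 of 23 TU sections. In each list the shift was read beside 29.8% of all probe sets called.

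Cd36 was lower in the TU sections of DEN-CA rats. Their TU signals were 204.3, 313.3, 366.8, 571.6, 236.3, 610.4 and, in rat 4111, 416.7 and 553.5, against 532.1, 437.2, 537.7, 815.1, 800.9, 821.5 and 802.4 in the untagged sections of the same rats. All 7 rats were lower in TU. The difference was -0.79 ± 0.16 (adjusted p = 0.00178). Cd36 and Fabp4 were the 2 members called, beside 29.8% of all probe sets. In CA rats Cd36 ran from 331.8 to 1212 in TU sections and from 496.9 to 1455 in untagged ones, lower in 7 of 9 rats, with a difference of -0.29 ± 0.14 (adjusted p = 0.248). Without rat 4137 it was -0.39 (adjusted p = 0.0479).

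Fabp1 was lower in TU in 8 of 9 CA rats, with 6049 to 12970 in TU sections and 11270 to 19230 in untagged ones. The difference of -0.56 ± 0.12 did not pass (adjusted p = 0.0623), and without rat 4137 it was -0.65 (adjusted p = 0.000592). In DEN-CA rats it was -0.30 ± 0.14 (adjusted p = 0.109), lower in 5 of 7. Fabp3 showed no detectable TU difference, with -0.16 ± 0.23 in CA rats and -0.04 ± 0.26 in DEN-CA rats. In PERI sections of 5 rats none of the 3 members tested against the untagged section passed, and none of the 4 against TU. Over all probe sets 0 were called in both comparisons by limma, with 1 and 2579 at an unadjusted p under 0.05.

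**Figure D5:**
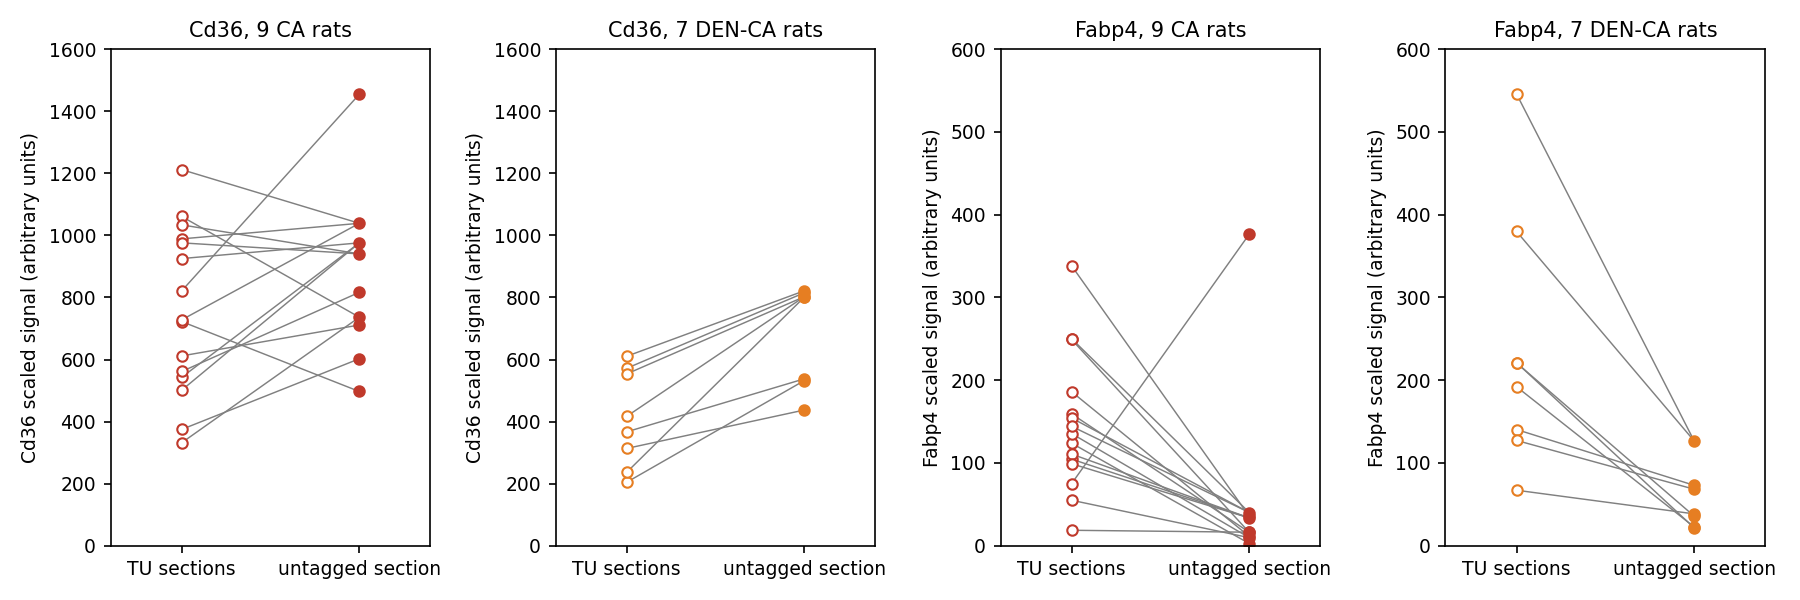
Signals of Cd36 and Fabp4 in each TU section (open circles, left) and in the untagged section of the same rat (filled circles, right), joined by lines, for CA and DEN-CA rats on linear axes from 0. With the TU sections of a rat averaged, Fabp4 is higher in TU in 8 of 9 CA rats and 7 of 7 DEN-CA rats, and Cd36 is lower in TU in 7 of 9 and 7 of 7.

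In the groups tagged rev, Cd36 did not differ between arms past the threshold. At 18m it had 1073, 1108, 840 and 602.5 in CA rev rats, against 646.3, 763.1 and 2174 in control rev rats, a change of -0.21 ± 0.37 that was 0.32 ± 0.35 without rat 4046. At 12m the signals were 802.4, 635.3, 576.7, 744.1 and 716 in DEN-CA rev rats. DEN rev rats had 440.5 to 3380 with a median of 978, and rats 4081 (3231) and 4084 (3380) lay far above the other 4. The change was -0.77 ± 0.30 (adjusted p = 0.849), and it was -0.05 ± 0.27 without those 2 rats. At 18m 0 of 4 members and 0.736% of all probe sets were called, and at 12m 0 of 4 and 0.121%. Against untagged groups without rev, no member was called in DEN rats (0.0323% of all probe sets) or in control rats of 12m (0.121%).

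Fabp3 fell in DEN-CA rev 12m, with 12.63, 69.44, 68.87, 64.74 and 59.39, against 206.2, 193.4, 99.24, 147.5 and 161.9 in DEN-CA 12m. The groups did not overlap, and the change was -1.26 ± 0.41 (adjusted p = 0.027). In this comparison 1 of 4 members and 12.9% of all probe sets were called. The call ended without rat 4111, 4106 or 4107, with changes from -1.40 to -1.01 over rats left out. In CA rev 18m Fabp3 had 103.3, 119.2, 91.84 and 39.04, against 135.5 to 339.2 in CA 18m. All CA rev rats were below all CA rats, yet the change of -0.94 ± 0.43 did not pass (adjusted p = 0.132, with 14.7% of all probe sets called). Cd36 did not pass in either pair, with -0.29 ± 0.31 in DEN-CA and -0.17 ± 0.33 in CA rats.

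Fabp4 was higher in control rev 18m, with 348, 65.87 and 33.93, against 3.27, 12.78, 4.05, 166.6 and 2.775 in control 18m. The change was 1.52 ± 0.41 (adjusted p = 0.00804), beside 9.8% of all probe sets called. It was 0.73 without control rev rat 4043 (adjusted p = 0.328), and 2.60 ± 0.44 without rats 4040 and 4046, which leaves 2 control rev rats (adjusted p = 1e-05). Macrophage and Kupffer cell genes were higher in the same comparison, 7 of 10 tested (also 7 without rats 4040 and 4046), with a summed signal of 13730 to 17980 in control rev rats and 5731 to 13370 in control rats. Clec4f had 2485 to 2928, against 809.6 to 2080, and the part of these cells in the Fabp4 difference was not tested. CA rev against control rev differed by -1.18 ± 0.43 in Fabp4 (adjusted p = 0.231), and by -1.73 ± 0.44 without rat 4046 (adjusted p = 0.0139).

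Other genes of fatty acid uptake, transport and binding were read from a list of 27, of which 26 were on the array and 24 were tested. At 5j 8 were higher and 3 lower in CA than in control rats, with a median change of 0.14 against -0.03 over all genes and 11.2% of all probe sets called. The largest rises were in the lipoprotein lipase gene Lpl (2.08 ± 0.22), in Acsl3, an acyl-CoA synthetase (1.90 ± 0.24), and in the brain binding protein gene Fabp7 (1.76 ± 0.28). The very low density lipoprotein receptor gene Vldlr rose by 1.05 ± 0.23. The transporter and acyl-CoA synthetase gene Slc27a5, which acts on bile acids, fell by 1.56 on the log2 scale (adjusted p = 1.64e-09). With DEN the counts at 5j were 10 higher and 3 lower, and Lpl (1.60 ± 0.22) and Acsl3 (2.24 ± 0.24) rose there too.

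Several of these genes were still called at 18m, when the change of Cd36 was 0.00. In CA against control rats at 18m 5 were higher and 2 lower, beside 6.8% of all probe sets, with Vldlr at 1.79 ± 0.23 (adjusted p = 1.24e-09), Fabp5, the epidermal binding protein gene, at 1.66 ± 0.26, and Lpl at 1.39 ± 0.22. In controls at 18m against 5j, 1 of 24 was higher, the lipoprotein receptor gene Scarb1 (0.67 ± 0.17), and 1 was lower, the sterol carrier gene Scp2 (-0.46 ± 0.15). Without rat 4040 the counts in CA against control at 18m were again 5 and 2, beside 6.08% of all probe sets, and those in old controls were 1 and 0. In TU sections of DEN-CA rats, where 29.8% of all probe sets were called, 2 of 24 were higher, Fabp2 (1.68 ± 0.43) and Cav1 (0.87 ± 0.19), and 7 were lower, among them Slc27a5 (-2.63 ± 0.68) and Acsl4 (-1.03 ± 0.22).

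PPARalpha targets of lipid oxidation were read from a second list. At 5j 21 of 25 were higher in CA rats and 0 lower, beside 11.2% of all probe sets. The smallest p-values were those of Acot1 (5.62 ± 0.34), the peroxisomal enzyme gene Ehhadh (2.64 ± 0.22), Cpt1b (2.39 ± 0.20) and the malic enzyme gene Me1 (2.22 ± 0.20). At 9m 14 and at 18m 14 of 25 were higher, with 1 lower at each time, beside 6.83% and 6.8% of all probe sets. Without rat 4040 11 were higher and 1 lower at 18m. In controls at 18m against 5j, when Cd36 rose by 3.12, 1 of these 25 was higher and 0 lower (0 and 0 without rat 4040), beside 7.02% of all probe sets.

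Genes that depend on growth hormone and sex in rat liver were read from another list in old controls. Of 17 tested at 18m against 5j, 10 were lower and 1 higher, with a median change of -1.19 over the list and -0.02 over all genes. Prlr rose by 3.34 ± 0.47, while Obp3, a urinary protein of male rats (-3.92 ± 0.66), Sult1e1, an oestrogen sulphotransferase (-3.36 ± 0.62), and Hao2, a hydroxyacid oxidase (-2.60 ± 0.47), fell. Without rat 4040, 6 were lower and 1 higher, with 4.2% of all probe sets called. Prlr was then at 2.71 ± 0.37 (adjusted p = 3.84e-08), Obp3 at -2.95 ± 0.48, Sult1e1 at -2.30 ± 0.36 and Hao2 at -1.78 ± 0.31. Their part in the change of Cd36 with time was not tested. Their relation to Cd36 between rats of the same group was tested in older rats, and none passed after adjustment (see Other observations).

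The 4 rats with high A1bg had the highest Cd36 of the untagged sections. Their Cd36 signals were 2555, 2174, 3231 and 3380, while the other 144 sections reached 2126. Among the other rats of the same 3 groups Cd36 ran from 440.5 to 1064. Fabp1 (7979 to 16590) and Fabp3 (22.1 to 96.66) in the 4 rats lay inside the ranges of the other sections.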

How the data were processed

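RNA of rat liver sections was hybridised to Affymetrix arrays, 1 array per section and 176 in all. The deposited values are linear intensities for 15922 probe sets on each array, made with MAS5 per the submitters' processing notes, with its version and settings not given in the sources used here. Of these probe sets 12783 were annotated to 1 gene, 312 to several and 2827 to none, and 56 control probe sets were left out. No column was left unused (0).

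Each array was scaled to a common median, 25 was added and log2 was taken. A probe set was tested if it lay above the 40th percentile of its array on at least 3 arrays. limma 3.58.1 (R 4.3.3) fitted the 30 groups of untagged sections together (118 residual degrees of freedom) with lmFit and eBayes with a trend, two-sided. TU and PERI sections were compared with the untagged section of the same rat, as differences per rat with the TU sections of a rat averaged. This pairing comes from the rat number in the labels, which marks 1 animal. Every adjusted p in the text is limma's, with Benjamini-Hochberg adjustment over the probe sets of its fit. The number of arrays limits the precision. The lowest correlation of 2 arrays within a group was 0.912 and no 2 arrays held the same values. The procedure was tested on simulated data.

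The text names the 4 members, for each the 5 genes with the most similar group means, the genes called in the list of other uptake genes, and up to 4 genes of each other list by smallest p. The members and lists were chosen with earlier results of these data known. Alternatives were the scaling, the offset, the filter, a 2-fold rule, array weights, the groups in the fit, the suffix B, the pairing, and each rat left out in turn, for which only the members were refitted. Dropping the 4 rats with A1bg above 2000, or rat 4137 with the fit repeated, was chosen after the data were seen.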

Additional observations from a re-analysis of the deposited data

Results flagged for a closer look

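The signals of 1 member in 1 group of 4 to 10 sections made a set, and sets of the same group share their arrays. Of 124 such sets, 10 had a section farther from the rest than Dixon's test allows, where chance gives about 1 in 20. The highest were Cd36 in rat 4153 of CA 18 (1560, others 816.6 to 976), in rat 4001 of control -8 (184, others 69.7 to 86.11) and in rat 4020 of control 3m (228.5, others 104.8 to 132.4). Fabp1 stood high in rat 4155 of CA 18 (17550, others 14940 to 15620). Fabp3 stood high in rat 4150 of CA 18m (339.2, others 135.5 to 167.1). Fabp4 stood high in rat 4137 of CA 12m (376.4, others 2.602 to 33.69) and in rat 4040 of control 18m (166.6, others 2.775 to 12.78), which is also 1 of the 4 rats with high A1bg. Sections below their group were 1 TU section of CA 18m rat 4142 for Cd36 (331.8, others 727.9 to 1212), and the untagged section of DEN-CA rev rat 4111 for Fabp1 (7414, others 10680 to 11760) and for Fabp3 (12.63, others 59.39 to 69.44).

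The effect of CA differed between times by the test of that difference. For Cd36 the change from 5j was -2.956 at 9m, -3.214 at 12m and -3.525 at 18m in CA rats. In DEN-CA rats it was -1.805 at 3m, -3.236 at 9m and -3.313 at 12m. For Fabp3 it was -2.15 at 12m in CA rats, and -2.583 at 3m, -4.368 at 9m and -3.124 at 12m in DEN-CA rats.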

How the results depend on the processing

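Over all alternatives other than single rats left out, 2679 of 2812 values kept their side of the threshold. Of these 2679, 182 changed sign with no call before or after. Another 75 lost a call, 50 gained one, and 8 reversed direction with a call before or after. All 8 reversals with a call were of Fabp1. Without scaling they were CA against control at 3m (-0.219), CA 9m (0.1349) and 18m (0.03215) against 5j, and the effect of DEN-CA minus that of CA at 3m (0.5632). With quantile normalization they were CA 9m against control (0.2068), CA 18m against 5j (0.001709), control 12m against 5j (0.2149) and DEN-CA against DEN at 3m (0.3104). The cause was not tested.

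Calls of members without scaling were 7 for CA against control (14 with scaling), 9 for later times (15), 1 for the difference between arms (0), 0 for rev (2) and 1 for TU (2). The counts over all probe sets moved with the settings too, and they are given below for some of these comparisons. The counts of member calls are thus no result about the members alone. For rev they were 4 with array weights and 1 with an offset of 99. For TU they were 6 with the rat as a random block, 5 with array weights, 5 without rat 4137, 4 with the filter at the 70th percentile, and 1 with the 2-fold rule, an offset of 6 or rev rats 4151 and 4111 left out. The within-rat correlation in the random block fit was -0.0279. That fit thus took several TU sections of 1 rat nearly as separate rats, and its calls are not calls over rats. For PERI the random block gave 1 (0).

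In untagged sections, Fabp1 in CA at 5j (0.6277) lost its call under the 2-fold rule, without scaling (0.2315) and within arrays with the suffix B (0.3942) or without it (0.6184). Quantile normalization gave a call to Fabp1 in CA 18m (0.3973), CA rev (0.3648) and DEN-CA 5j (0.464), array weights to DEN-CA 5j (0.4489), and the suffix as covariate to control 18m against 5j (-0.5768). Fabp3 in CA 18m lost its call without scaling (1.383) and without the rats of high A1bg (1.156). Fabp3 in DEN-CA 12m gained one with array weights (1.115) and in a fit of its own groups (1.072). Fabp4 in CA rev gained one without the rats of high A1bg (-1.732).

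In TU sections of CA rats, Cd36 gained a call with the random block (-0.5553), array weights (-0.3651) and without rat 4137 (-0.3887). Fabp1 did so under the same settings (-0.6767, -0.6085 and -0.6505), with the filter at the 70th percentile (-0.5608) and with an offset of 99 (-0.5569). Fabp4 did so under the same 3 settings (1.749, 1.787 and 1.988), with that filter (1.544) and with no replicate block (1.544). In DEN-CA rats, Fabp1 gained a call with the random block (-0.4891) and quantile normalization (-0.2776), Cd36 lost its call under the 2-fold rule (-0.7903), and Fabp4 lost it without scaling (1.411), with an offset of 6 (1.79) and without the rev rats (1.435). Without the pairing by rat (no replicate block), no other call of a member changed.

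Probe sets called in CA at 5j (1390) were 494 without scaling, 753 in a fit of its own groups, and 647 and 260 within arrays with and without the suffix (without it, 1 control rat). In control 18m against 5j (868) they were 1846 with the suffix as covariate, 397 without scaling, 230 in a fit of its own groups and 519 without rats of high A1bg. In TU of CA rats (0) they were 2799 with the random block, 2792 with array weights, 2437 without rat 4137, 447 with the 70th percentile, 366 with no replicate block, 25 without scaling and 124 with an offset of 99. In TU of DEN-CA rats (3437) they were 1481 without scaling.

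With each rat left out in turn, Fabp1 in CA 5j ran from 0.4827 to 0.7306, Fabp3 in CA 18m from 1.153 to 1.467, Fabp4 in TU of DEN-CA rats from 1.312 to 1.623 and Fabp1 there from -0.3913 to -0.2257. Fabp4 was dim in most untagged sections, which limits what its signals can show.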

Other observations

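Cd36 was set beside 4 growth hormone and sex dependent genes over 34 older control and DEN rats (9m, 12m, 18m and rev, 8 groups), leaving out the 4 rats with high A1bg. The genes were picked after their changes in old controls were seen. Over all 34 rats Pearson's r with Cd36 was 0.55 for Prlr, -0.191 for Obp3, -0.327 for Hao2 and -0.29 for Sult1e1, and these values mix differences between groups of unlike age and arm. Within groups, with each value less its group mean and permutation within groups, no relation passed after adjustment over the 4. Prlr had r = 0.508 (permutation p = 0.0295, adjusted p = 0.118) and a Spearman rho of 0.321 (permutation p = 0.0895, adjusted p = 0.358), and r was 0.184 without the 2 rats farthest from the median of Prlr. For Obp3 r was 0.028, for Hao2 -0.187 and for Sult1e1 -0.164 (permutation, adjusted p = 0.844, 0.497 and 0.497), and rho was 0.094, -0.182 and -0.0906 (adjusted p = 0.609, 0.595 and 0.609). Without the 2 farthest rats these 3 r were 0.133, -0.083 and -0.0267.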
